A study of Mus musculus with 2 samples.

Results

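Sprr2a-high cells are the cells of dysplastic mouse stomach organoids with the most Sprr2a transcripts. In each of 2 libraries, barcodes above a threshold on total counts were taken as cells, the smallest with 9332 counts (DMSO) and 13154 counts (pyrvinium). They were ranked by the summed counts of Sprr2a1, Sprr2a2 and Sprr2a3 per 10000 counts of the cell, and the top quartile was taken; the bottom quartile of the same library, the Sprr2a-low cells, is the comparison. This gave 400 of 1602 cells of the DMSO library and 213 of 854 cells of the pyrvinium library, 613 of 2456 in all. Both libraries came from Meta4 organoids of the stomach corpus, grown from mice carrying Mist1-CreERT2Tg/+ and a Cre-activated allele under induction of dysplasia. Mist1 is a gene of gastric chief cells, so the inducible Cre and the allele it activates, which both libraries carry, start from the cells in which that promoter is active. The organoids were kept for 1 day with the solvent DMSO or with pyrvinium, an anthelmintic drug, and the series asked which subpopulations the drug affects before the organoids lose their shape. Each treatment has 1 library of 1 organoid line. No difference therefore has a replicate check, no test was run, and all intervals are 95% and cover counting error only, which leaves out variation between cells and cultures.

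Small proline-rich proteins are short proteins that transglutaminases crosslink into the cornified envelope, the tough layer beneath the membrane of terminally differentiated keratinocytes. The Sprr2 genes lie in the epidermal differentiation complex together with those of involucrin, loricrin and the late cornified envelope proteins. Outside the skin, Sprr2a genes are known to be induced in simple epithelia, such as those of the gut, bile duct and airway, during injury, inflammation and microbial colonisation, and Sprr2 expression alone does not make a cell squamous.

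The 3 genes that define the cells, Sprr2a1 (ENSMUSG00000078664), Sprr2a2 (ENSMUSG00000068893) and Sprr2a3 (ENSMUSG00000074445), lie on chromosome 3 in the reference annotation (build GRCm38, GENCODE), an older build than the GRCm39 of the files, so no coordinates are given. Their coding sequences of 249 bases are printed to show how far reads can tell them apart. That of Sprr2a2 is identical to that of Sprr2a1, and capitals mark the 3 bases at which Sprr2a3 differs, G63A, G159T and A192T, with the base of Sprr2a1 first and positions counted from the A of the start codon.
Sprr2a1: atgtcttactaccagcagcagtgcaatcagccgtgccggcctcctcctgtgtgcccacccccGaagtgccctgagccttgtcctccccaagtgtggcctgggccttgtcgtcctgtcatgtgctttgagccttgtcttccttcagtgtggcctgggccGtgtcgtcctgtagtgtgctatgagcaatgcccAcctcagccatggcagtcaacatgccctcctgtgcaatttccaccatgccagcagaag
Sprr2a3: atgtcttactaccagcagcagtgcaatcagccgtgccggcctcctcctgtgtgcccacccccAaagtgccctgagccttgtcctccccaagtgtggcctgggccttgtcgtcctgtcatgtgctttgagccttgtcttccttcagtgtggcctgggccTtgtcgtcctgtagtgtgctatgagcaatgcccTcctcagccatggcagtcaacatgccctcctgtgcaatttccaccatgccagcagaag
Every 50-base window of the Sprr2a1 coding sequence occurs in Sprr2a2 (100%), and 33.5% occur in Sprr2a3. At the 3' ends of the transcripts, where this method reads, 100% of the windows of Sprr2a1 occur in Sprr2a2, and 79.7% of those of Sprr2a1 and 62.2% of those of Sprr2a2 occur in Sprr2a3. The split of counts among the 3 genes is therefore uncertain, most between Sprr2a1 and Sprr2a2 but also for Sprr2a3, and their sum is used throughout. In the high quartile, Sprr2a1, Sprr2a2 and Sprr2a3 gave 26.3%, 52.5% and 21.2% of the Sprr2a counts with DMSO and 26.0%, 51.9% and 22.1% with pyrvinium. The low quartile had nearly the same split, 25.7%, 52.2% and 22.0% with DMSO and 25.7%, 51.8% and 22.5% with pyrvinium. When the cells were chosen by Sprr2a3 alone, 96.3% of the DMSO and 96.7% of the pyrvinium high quartile were the same cells.

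The Sprr2a level, summed over the 3 genes, formed a broad continuum with no gap at which the high cells separated from the rest. In the DMSO library it ran from 6.77 to 3270 per 10000 counts with a median of 181, and with pyrvinium from 5.07 to 2577 with a median of 141. Every cell had at least 10 Sprr2a counts. The lowest cell inside the high quartile had 532.8 per 10000 with DMSO and 315 with pyrvinium, and the highest cell outside had 530.2 and 314. The low quartile ended at 47.0 and 39.6 per 10000. The high quartile is therefore a range of a continuous level and not a separate population. From the lowest to the highest quartile, Sprr2a took 0.24%, 1.02%, 3.34% and 10.5% of all counts with DMSO, and 0.23%, 0.84%, 2.26% and 5.91% with pyrvinium. The high quartile held 70.3% of all Sprr2a counts of the DMSO cells and 63.0% of those of the pyrvinium cells. These values follow from how the cells were chosen and are a description.

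**Figure D1:**
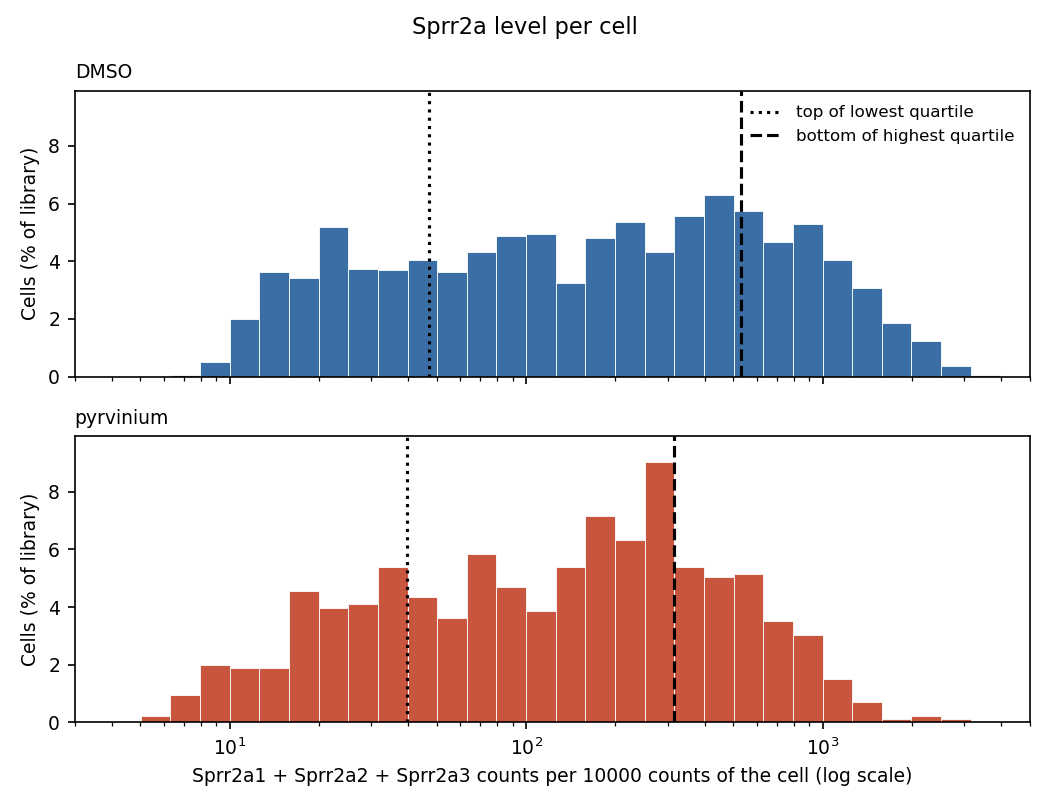
Histograms of the summed Sprr2a1, Sprr2a2 and Sprr2a3 counts per 10000 counts of each cell (x axis, log scale) as a percentage of the cells of each library (y axis), with the top of the lowest quartile dotted and the bottom of the highest quartile dashed. Levels run without a gap from 6.77 to 3270 with DMSO and from 5.07 to 2577 with pyrvinium, and the dashed bound lies at 532.8 with DMSO and at 315 with pyrvinium.

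The upper range of Sprr2a was lower in the pyrvinium library, whereas the low end was nearly the same. Over all cells Sprr2a was at 391 per 10000 counts with DMSO and 238 with pyrvinium, 1.64-fold lower (log2 ratio -0.72). Within the high quartiles it was at 1050 and 591 per 10000, and within the low quartiles at 23.8 and 23.4. The DMSO bound of 532.8 was reached by 400 of 1602 DMSO cells but by 108 of 854 pyrvinium cells, 12.6% (10.5 to 15.1). Conversely, the pyrvinium bound of 315 was reached by 38.4% (36.0 to 40.8) of DMSO cells. The high quartiles of both libraries thus cover different ranges, and a comparison of the libraries within them is one of ranks and not of equal Sprr2a levels.

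Free RNA was rich in Sprr2a. Barcodes with 100 to 500 counts, which are mostly empty of cells, held 371 Sprr2a counts per 10000 with DMSO and 235 with pyrvinium. The low quartile was at 6.4% and 9.94% of these levels, and the lowest single cell at 1.82% and 2.16%. The high quartile was at 2.83 times the free RNA level with DMSO and 2.51 times with pyrvinium. Free RNA that made up these 6.4% and 9.94% of the counts of the low cells would give all of their Sprr2a, so whether those cells express Sprr2a cannot be told apart from it.

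The proposed name of the cells, squamous-like, was checked against 20 defining genes of stratified squamous epithelium, and the data go against it. Trp63, the master regulator of stratified epithelia, was at 0.92, 0.74, 0.50 and 0.86 CPM (counts per 1000000) from the lowest to the highest DMSO quartile and at 0.50, 0.63, 0.89 and 0.74 CPM with pyrvinium. The basal keratin genes Krt5 and Krt14 stayed at or under 0.60 CPM in each quartile, and Krt13, a keratin of the suprabasal layers of internal squamous epithelia, at or under 1.15 CPM. Krt6b, Krtdap and Calml3 had 0 counts in both libraries. Of the listed genes with more counts, Krt10, a suprabasal keratin, was at 31.5 CPM in the low and 27.9 CPM in the high quartile with DMSO and at 17.5 and 19.5 CPM with pyrvinium. The transcription factor gene Pax9 was at 14.9 and 13.6 CPM with DMSO and 11.6 and 15.7 CPM with pyrvinium. The 20 genes together summed to 133, 136, 127 and 147 CPM across the DMSO quartiles. With pyrvinium their sum rose at each step, at 83.8, 89.0, 104 and 124 CPM.

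Of the squamous genes with 20 or more counts in the high and low quartiles together, 6 with DMSO and 4 with pyrvinium, 0 passed the size rule with DMSO and 2 were higher with pyrvinium. The size rule asks for a difference of at least 1.5-fold with the whole interval on that side. Over all genes it was passed in the higher direction by 3.07% of 12363 with DMSO and 6.70% of 12072 with pyrvinium, and in the lower direction by 5.23% and 3.80%. The genes that passed were Krt4, a keratin of internal squamous epithelia, and the serpin gene Serpinb5. Krt4 was at 1.124 CPM in the low and 8.07 CPM in the high quartile with pyrvinium, and at 23.4 and 29.0 CPM with DMSO. It rested on few pyrvinium cells, since 29 cells of the high quartile had a count and 5 of them held 54% of the counts. Serpinb5 was at 51.3 and 78.6 CPM with pyrvinium (log2 ratio 0.62) and at 58.8 and 71.5 CPM with DMSO (0.28).

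Few partner genes of the cornified envelope differed between Sprr2a-high and Sprr2a-low cells. Involucrin (Ivl) was at 0.35 CPM in the low and 1.34 CPM in the high quartile with DMSO, and loricrin (Lor) at 1.73 and 0.67 CPM. Of 28 listed envelope genes, 9 had enough counts with DMSO. Of these, 0 were higher and 2 were lower in Sprr2a-high cells, Cnfn and Crct1. Cornifelin (Cnfn) was at 182, 26.4, 59.0 and 89.7 CPM across the DMSO quartiles, with 45% of the counts of the low quartile in 5 cells. In the pyrvinium library, 8 envelope genes had enough counts, and the 1 that was higher was Ecm1, an extracellular matrix protein gene; Cnfn was at 31.8 and 34.6 CPM. Against the middle quartiles as 1 group, a comparison added after the levels were seen, 2 of 12 envelope genes were higher and 0 lower with DMSO, Cnfn and Ecm1, and 2 of 9 were higher and 0 lower with pyrvinium, Crct1 and Ecm1. Over all genes, that comparison called 3.31% higher and 5.26% lower with DMSO and 3.49% and 2.40% with pyrvinium. Tgm1, the transglutaminase of keratinocytes, had 40 counts over all DMSO cells and 10 over all pyrvinium cells.

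Among the other small proline-rich genes, Sprr2b ran in step with Sprr2a. It was at 0.46, 2.13, 6.79 and 20.4 CPM with DMSO and at 0.12, 1.67, 3.38 and 10.7 CPM with pyrvinium. In the DMSO quartiles its counts were 0.019%, 0.021%, 0.020% and 0.019% of the Sprr2a counts. The coding sequences of Sprr2b and Sprr2a1 share 75.3% of aligned bases and 0 windows of 50 bases. Whether reads of Sprr2a were counted as Sprr2b was not tested, so the level of Sprr2b is uncertain. Sprr1a was at 32.7 CPM in the low and 45.0 CPM in the high quartile with DMSO, and at 14.1 and 23.5 CPM with pyrvinium. Sprr2f passed the size rule with pyrvinium, but 39 of its 42 counts came from 1 cell of the high quartile. Sprr1b, Sprr2e, Sprr2j-ps, Sprr2k and Sprr4 had 0 counts in both libraries.

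Keratins of simple epithelium were present at every Sprr2a level. Krt8 was at 2180 CPM in the low and 2096 CPM in the high quartile with DMSO, and at 1052 and 1450 CPM with pyrvinium. Krt18 was at 3460 and 3274 CPM with DMSO and at 2103 and 2716 CPM with pyrvinium. Of the 6 simple keratins, 0 passed the size rule with DMSO, whereas Krt7, Krt19 and Krt20 were higher with pyrvinium, by log2 ratios of 0.72, 0.72 and 4.40. Krt20, a marker of differentiated foveolar and intestinal cells, was at 0.75 CPM in the low and 15.8 CPM in the high quartile of the pyrvinium library, and at 2.65 and 2.29 CPM with DMSO. Its counts in the pyrvinium high quartile came from 33 of 213 cells, and 5 of them held 58%. The cells are therefore called by their leading genes, Sprr2a-high cells.

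**Figure D2:**
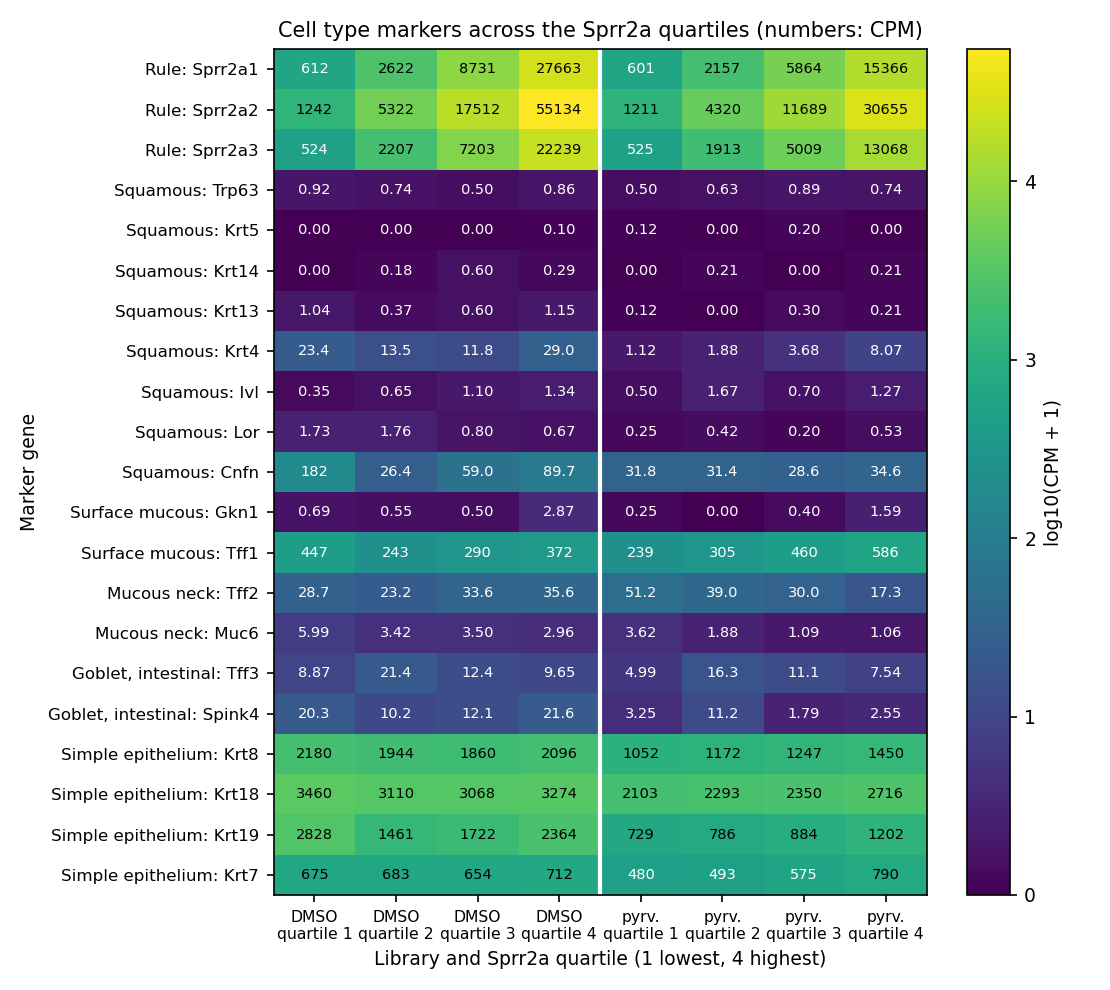
Levels in CPM (numbers) of the 3 genes of the rule and of marker genes of squamous, surface mucous, mucous neck, goblet and simple epithelium (rows) in the Sprr2a quartiles of both libraries (columns, quartile 1 lowest and 4 highest), coloured by log10(CPM + 1). Trp63, Krt5, Krt14 and Krt13 stay at or under 1.15 CPM in each quartile, whereas Krt8, Krt18, Krt19 and Krt7 are at 480 CPM or more.

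Markers of the gastric lineages did not move as one. The surface mucous genes Gkn2 and Muc5ac had 5 and 1 counts over all cells of both libraries, and Gkn1 passed the size rule with DMSO at 0.69 CPM in the low and 2.87 CPM in the high quartile. The surface mucous peptide gene Tff1 was at 447 CPM in the low and 372 CPM in the high quartile with DMSO, but at 239 and 586 CPM with pyrvinium. Muc6, the mucin of mucous neck cells, was lower in both libraries, at 5.99 and 2.96 CPM with DMSO and 3.62 and 1.06 CPM with pyrvinium. Agr2, a disulfide isomerase gene of mucous cells, was at 464 and 504 CPM with DMSO but at 209 and 111 CPM with pyrvinium. Of 11 mucous neck and metaplasia genes, 1 was higher and 2 lower with DMSO and 1 higher and 3 lower with pyrvinium, whereas their sum, 5648 and 7461 CPM in the low and high quartiles with DMSO and 5481 and 6600 CPM with pyrvinium, was larger in the high quartile. The abundant members Clu and Wfdc2 did not reach the size rule. Clusterin (Clu) was at 2655 and 3830 CPM with DMSO and 1681 and 1969 CPM with pyrvinium, and Wfdc2 at 2059 and 2549 CPM with DMSO and 3225 and 4146 CPM with pyrvinium. Glipr1 was higher in both libraries, at 44.6 and 80.5 CPM with DMSO and 24.1 and 37.1 CPM with pyrvinium. Muc1, a membrane mucin, was at 274 and 186 CPM with DMSO (log2 ratio -0.56, short of the size rule) and at 152 and 63.5 CPM with pyrvinium (-1.26).

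Most markers of cells outside the epithelium had few counts, with the exception of Cd68 and Cdh5. The summed level of 12 immune, stromal and endothelial genes lay between 58.4 and 79.6 CPM across the DMSO quartiles and between 84.7 and 97.3 CPM with pyrvinium. Cd68 and Cdh5 made up most of it, and Cd68 was lower with DMSO, at 37.9 and 22.3 CPM in the low and high quartiles, against 24.3 and 25.6 CPM with pyrvinium. Lyz2 had 0 counts in both libraries, Cd3e 1 and 3, Col1a1 3 and 3 and Ptprc 14 and 28. The summed level of 9 chief and parietal cell genes was 12.3 and 12.7 CPM in the low and high quartiles with DMSO and 12.6 and 3.40 CPM with pyrvinium.

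Genes that rose with Sprr2a in both libraries were led by Afp, Spp1, Ccnd2, Sftpd and Anxa3. Afp (ENSMUSG00000054932), the fetal serum protein alpha-fetoprotein, was at 17.3, 20.1, 41.4 and 56.4 CPM from the lowest to the highest DMSO quartile and at 15.4, 20.3, 26.1 and 50.03 CPM with pyrvinium. Its level rose at each step, and the high quartile was 3.26-fold above the low quartile in both libraries (log2 ratios 1.70, interval 1.44 to 1.97, and 1.70, 1.41 to 2.002). It was not a gene of all these cells, with counts in 149 of 400 and 99 of 213 cells of the high quartiles, against 84 and 61 cells of the low quartiles. Osteopontin (Spp1), a secreted matrix protein, was at 589 CPM in the low and 1135 CPM in the high quartile with DMSO and at 271 and 736 CPM with pyrvinium, log2 ratios of 0.95 and 1.44. Sftpd, the lectin surfactant protein D, was at 166 and 302 CPM with DMSO and 82.1 and 176 CPM with pyrvinium. The annexin gene Anxa3 was at 385 and 673 CPM with DMSO and at 274 and 649 CPM with pyrvinium.

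Ccnd2, Ccnd1, Cdkn2a and Ccng1, genes of cyclins and of a cell cycle inhibitor, were among the 15 genes ranked highest in both libraries. Ccnd2, the gene of cyclin D2, was at 283, 317, 395 and 538 CPM across the DMSO quartiles and at 135, 201, 231 and 346 CPM across the pyrvinium quartiles. Ccnd1, the gene of cyclin D1, was at 208 and 334 CPM in the low and high DMSO quartiles and at 165 and 358 CPM with pyrvinium. Cdkn2a, which encodes the cyclin-dependent kinase inhibitor p16 and the p53 regulator ARF, was at 80.4 and 143 CPM with DMSO and 94.8 and 212 CPM with pyrvinium. The p53 target gene Ccng1 was at 121 and 190 CPM with DMSO and 148 and 238 CPM with pyrvinium.

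Among 16 p53 target and kinase inhibitor genes, 4 were higher and 2 lower with DMSO, and of 15 with enough counts 5 were higher and 1 lower with pyrvinium. Their median log2 ratios were 0.13 and 0.33, beside -0.08 and 0.06 over all genes compared. Over all genes 3.07% were higher and 5.23% lower with DMSO, and 6.70% and 3.80% with pyrvinium. Between the 10% of cells with the most and the 10% with the least Sprr2a, which hold fewer counts, fewer list members were higher. There 1 of 15 was higher and 1 lower with DMSO, and 2 of 15 higher and 2 lower with pyrvinium, with no share over all genes given. Ccng1 did not pass there in either library, at log2 ratios of 0.47 and 0.54. Eda2r, a p53 target of the tumour necrosis factor receptor family, was higher in the high than in the low quartile of both libraries, like Cdkn2a and Ccng1. Cdkn1b, the gene of the inhibitor p27, was lower in both, at 22.4 and 13.1 CPM with DMSO and 15.98 and 9.45 CPM with pyrvinium. Cdkn1a, the p53 target gene of p21, was at 917 and 1034 CPM with DMSO and 918 and 1124 CPM with pyrvinium, log2 ratios of 0.17 and 0.29 that did not reach the size rule.

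The rest of the 15 genes with the highest ratio in both libraries were Plac8, Mgmt, Apoc2, Cryab, Aldh3a1, Phgr1 and Pepd, with log2 ratios from 0.58 to 1.25 with DMSO and 0.86 to 1.60 with pyrvinium. Phgr1, at 537 and 804 CPM with DMSO, was the 1 of the 15 that stayed under 1.5-fold, with a log2 ratio of 0.58; with pyrvinium it was at 358 and 874 CPM (1.29). Mgmt is a DNA repair enzyme gene, Cryab a small heat shock protein gene and Aldh3a1 an aldehyde dehydrogenase gene of exposed epithelia. Adh7, an alcohol dehydrogenase gene of the upper digestive tract, was low but had ratios of the same size, at 4.72 and 13.2 CPM with DMSO and 5.37 and 16.1 CPM with pyrvinium. Ereg, an epidermal growth factor receptor ligand gene, was at 3.57 and 7.16 CPM with DMSO and 4.87 and 14.02 CPM with pyrvinium.

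Genes that were lower in Sprr2a-high cells of both libraries were led by Itln1, Ifitm1, Nupr1, Mmp7 and Gstm5. Itln1 (ENSMUSG00000038209), an intelectin that binds microbial sugars, was at 56.9, 26.6, 22.5 and 11.5 CPM with DMSO and at 37.5, 34.6, 10.4 and 10.2 CPM with pyrvinium, log2 ratios of -2.31 (-2.61 to -2.02) and -1.88 (-2.22 to -1.54). Its counts came from few cells, 100 of the low and 48 of the high quartile with DMSO and 61 and 20 with pyrvinium. Mmp7 (matrilysin), a metalloproteinase of glandular epithelia, was at 616 and 294 CPM with DMSO and 310 and 139 CPM with pyrvinium. Gstm5, a glutathione transferase gene, was at 181, 168, 138 and 94.4 CPM with DMSO and 257, 233, 185 and 121 CPM with pyrvinium, and fell at each step in both libraries. The cell surface gene Cd24a was at 707 and 431 CPM with DMSO and 555 and 357 CPM with pyrvinium.

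Interferon-inducible genes were among these. Ifitm1 was at 205, 162, 147 and 73.3 CPM across the DMSO quartiles and at 102, 68.2, 46.6 and 30.0 CPM across the pyrvinium quartiles. Ifitm3 was at 1812 and 1017 CPM in the low and high DMSO quartiles and at 1789 and 730 CPM with pyrvinium. Both encode interferon-induced transmembrane proteins, a family of antiviral restriction factors. Of a list of interferon response genes that holds Ifitm3, 3 of 11 genes with enough counts were lower and 1 higher with DMSO (median log2 ratio -0.22), and 8 of 15 were lower and 0 higher with pyrvinium (median -0.69). Between the top and bottom 10% of cells, 2 of 10 were lower with pyrvinium, with no share over all genes given for that comparison. With pyrvinium the lower genes included Irf7, a transcription factor of the interferon response (14.6 and 6.48 CPM), Ifi27 (29.8 and 16.1 CPM) and Oas1a (21.5 and 13.7 CPM), which lay between 0.80 and 4.39 CPM across the DMSO quartiles.

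**Figure D3:**
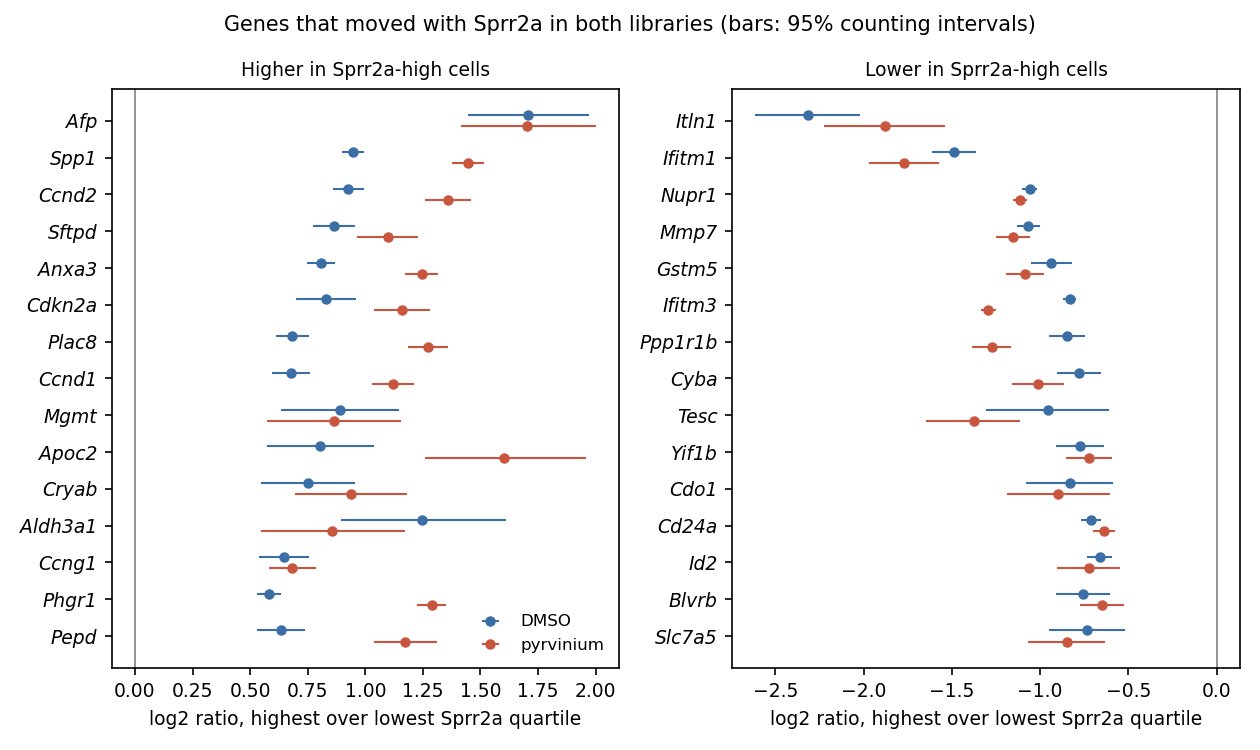
Log2 ratios of the highest over the lowest Sprr2a quartile (x axis) for the 15 highest-ranked and the 15 lowest-ranked genes of both libraries (y axis), DMSO blue and pyrvinium red, bars giving 95% counting intervals. Afp is at 1.70 in both libraries and Itln1 at -2.31 with DMSO and -1.88 with pyrvinium.

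Over all genes the libraries shared a minority of their differences. With DMSO, 380 genes (3.07%) were higher and 646 (5.23%) lower in Sprr2a-high than in Sprr2a-low cells, and with pyrvinium 809 (6.70%) were higher and 459 (3.80%) lower. Of 11770 genes compared in both libraries, 135 were higher in both, 39.0% of the 346 higher with DMSO and 17.1% of the 788 higher with pyrvinium. A further 113 were lower in both, 19.3% of the 587 lower with DMSO and 26.3% of the 430 lower with pyrvinium. Opposite calls were given to 8 genes higher with DMSO and lower with pyrvinium and to 18 the other way round. The counts of higher genes include Sprr2a1, Sprr2a2 and Sprr2a3, by which the cells were chosen. Across 4014 genes with at least 20 CPM in a quartile of each library, the log2 ratios had a Pearson r of 0.54, a description across genes that share cells and depth.

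The direction of the DMSO calls depended on scaling, and Sprr2a itself filled 10.5% of the counts of the DMSO high quartile. Scaled without mitochondrial, ribosomal protein and Sprr genes, the median log2 ratio of DMSO genes with at least 20 CPM went from -0.07 to 0.03, and 585 genes were higher and 415 lower with DMSO and 814 higher and 453 lower with pyrvinium. Scaled by the median of ratios, 549 were higher and 448 lower with DMSO and 703 higher and 528 lower with pyrvinium. Ribosomal protein genes took 27.6% of counts in the low and 22.5% in the high DMSO quartile, and 32.1% and 26.7% with pyrvinium. Sprr2a-high cells also had more counts, with a median of 20042 against 15932 with DMSO and 30596 against 27300 with pyrvinium. These totals include the Sprr2a counts by which the cells were chosen. Without them the medians were 17640.5 against 15893.5 with DMSO and 27343 against 27244 with pyrvinium. When cells of both quartiles were matched on total counts, leaving 349 and 187 cells in each, 349 genes were higher and 623 lower with DMSO and 809 higher and 431 lower with pyrvinium.

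In the DMSO library, many genes that were low in Sprr2a-high cells did not fall steadily with Sprr2a but were high in the lowest quartile alone. Among 125 genes with at least 20 CPM that were lower in the high quartile, 31 fell at every step, and 70 had a level in the lowest quartile at least 1.5-fold above that of the second. In the pyrvinium library 73 of 95 such genes fell at every step and 6 had that jump. Nupr1, a small stress-induced chromatin protein gene, differed in form between the libraries. With DMSO it was at 1404 CPM in the lowest quartile and at 553, 699 and 674 CPM in the next 3, whereas with pyrvinium it was at 1384 and 1359 CPM in the second and the third and fell to 807 CPM in the highest. Id2, a repressor of differentiation factors, was at 432 CPM in the lowest DMSO quartile and between 249 and 273 CPM in the others.

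Hypoxia and stress genes were among those with that jump. The 16 HIF target genes, which the hypoxia-inducible factor switches on when oxygen is scarce, summed to 2929, 1094, 1482 and 1778 CPM across the DMSO quartiles. With DMSO 7 of the 16 were lower and 0 higher in the high than in the low quartile, among them the mitophagy receptor gene Bnip3 (715 and 402 CPM), the oxidoreductase gene Ero1a (528 and 253 CPM) and Ndrg1 (304 and 147 CPM). Against the middle quartiles, 5 of the 16 were higher and 0 lower in Sprr2a-high cells. HIF targets were thus lowest at intermediate Sprr2a. Scaled without mitochondrial, ribosomal protein and Sprr genes, 4 were lower than in the low quartile and 9 higher than in the middle quartiles. No share over all genes is given for that scaling against the middle quartiles, so the 9 cannot be set beside one. In cells thinned to 5000 counts, the median count of the HIF list was 10, 3, 3 and 6 from the lowest to the highest DMSO quartile. With pyrvinium the list summed to 495, 463, 461 and 468 CPM and its median count was 2 in each quartile.

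The glycolysis list also had its highest sum in the lowest DMSO quartile, at 16066, 10329, 10968 and 12480 CPM in sum across the DMSO quartiles and between 5976 and 6384 CPM with pyrvinium. The aldolase gene Aldoc was at 104 and 58.2 CPM in the low and high DMSO quartiles and the glucose transporter gene Slc2a1 at 124 and 77.6 CPM. These are 2 of 3 glycolysis genes of 16 that were lower with DMSO, of which the scaling without Sprr genes left 1; against the middle quartiles 0 of 16 were higher or lower. Genes of the integrated stress response, which ATF4 drives when translation initiation is restrained, summed to 3107, 1851, 2098 and 1891 CPM with DMSO. Of these 24 genes 13 were lower and 0 higher in the high than in the low DMSO quartile (median log2 ratio -0.64), among them Trib3 (43.6 and 16.05 CPM) and Ddit3, the gene of CHOP (75.4 and 32.2 CPM). Against the middle quartiles only 1 was higher and 1 lower. With pyrvinium the list stood at 5354, 4971, 5104 and 4335 CPM, and 3 were lower and 0 higher, Atf5, the amino acid transporter gene Slc7a5 and Nupr1. Ddit3 was at 273 and 302 CPM there.

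The summed proliferation and stem cell genes were highest in the second quartile of the DMSO library. The 30 mitosis genes summed to 1537, 2231, 1844 and 1306 CPM and the 29 replication genes to 881, 1367, 1221 and 981 CPM. Against the low quartile, 0 mitosis genes were higher and 2 lower (median log2 ratio -0.28) and 1 replication gene was higher and 1 lower (0.09). The 10% of cells with the most Sprr2a were also set against the 10% with the least. There 0 of 29 mitosis genes were higher and 11 lower (-0.63), and 2 of 27 replication genes were higher and 1 lower (0.25). Over all genes that comparison called 389 higher and 958 lower with DMSO. The number of genes compared is not given, so no share over all genes can be set beside the list counts. Against the middle quartiles, 18 of 30 mitosis genes and 9 of 29 replication genes were lower and 0 were higher. Scaled without mitochondrial, ribosomal protein and Sprr genes, 14 and 4 were lower and 0 higher, with no share over all genes given for that scaling. The proliferation marker Mki67 was at 19.1, 32.1, 25.4 and 16.5 CPM, and the topoisomerase gene Top2a at 26.6, 33.0, 24.97 and 16.6 CPM. In thinned cells the median count of the mitosis list was 3, 8, 4 and 2.

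In the pyrvinium library 8 of 28 replication and 4 of 30 mitosis genes were higher and 0 lower in Sprr2a-high than in Sprr2a-low cells. Over all genes 6.70% were higher and 3.80% lower. The difference between the libraries passed the size rule upward for 6 of 28 replication and 10 of 30 mitosis genes, and downward for 0 of either. Over all 11770 genes it passed upward for 7.80% and downward for 2.41%. These 918 and 284 genes became 609 and 429 when scaled without mitochondrial, ribosomal protein and Sprr genes. For the 2 lists the difference with that scaling is not given. Between the 10% of cells with the most and the 10% with the least Sprr2a, which hold fewer counts, fewer members passed with pyrvinium. There 2 of 25 replication genes were higher and 0 lower, and 0 of 27 mitosis genes were higher and 1 lower. Over all genes that comparison called 558 higher and 659 lower with pyrvinium, again without a share. The replication list summed to 439, 463, 440 and 606 CPM, and in cells thinned to 5000 counts the median count of either list was 2 in each pyrvinium quartile. Against the middle quartiles 8 of 29 were higher and 0 lower. Rrm2, a subunit gene of ribonucleotide reductase, was at 29.8, 29.0, 26.6 and 53.1 CPM with pyrvinium and at 101, 116, 112 and 108 CPM with DMSO. Mcm7, a subunit gene of the replicative helicase, was at 6.12 and 13.8 CPM with pyrvinium and at 22.9 and 34.9 CPM with DMSO. Mki67 lay between 13.8 and 15.2 CPM in every pyrvinium quartile, and the mitosis list between 942 and 1010 CPM.

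Of the stem cell and Wnt target genes, some were lower in Sprr2a-high cells and most did not pass against the low quartile. Lgr5 (ENSMUSG00000020140), the receptor of gastric and intestinal stem cells, was at 26.4, 29.2, 22.4 and 11.6 CPM with DMSO and at 11.9, 8.06, 9.34 and 5.10 CPM with pyrvinium. Its log2 ratio was -1.19 (-1.52 to -0.87) with DMSO and -1.22 (-1.75 to -0.70) with pyrvinium. An Lgr5 count was found in 90 of 400 Sprr2a-high DMSO cells and in 148 of 400 Sprr2a-low cells. Of 17 stem cell and Wnt genes with enough counts, 6 were lower and 0 higher with DMSO, and 3 were lower and 1 higher with pyrvinium. Against the middle quartiles, 11 of 18 were lower and 0 higher with DMSO, and 2 lower and 1 higher with pyrvinium. With the scaling without Sprr genes 7 were lower with DMSO, and no share over all genes is given for that scaling. Between the top and bottom 10% of cells, which hold fewer counts, 2 of 14 were lower with DMSO, with no share over all genes given. In thinned cells the median count of the list was 2 in each DMSO quartile. Axin2, a feedback inhibitor and target of Wnt signalling, was at 15.8 and 8.21 CPM with DMSO, but at 4.37 and 7.12 CPM with pyrvinium.

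Sterol, ERK target and S100 genes had more members past the size rule in the pyrvinium library. Of 17 cholesterol synthesis and uptake genes, 7 were higher and 0 lower with pyrvinium (median log2 ratio 0.53), and 0 passed in either direction with DMSO (-0.21). The difference of the 2 log2 ratios itself passed the size rule upward for 11 of the 17, against 7.80% of 11770 genes over all. Against the middle quartiles, 0 of the 17 were higher or lower in either library. The sterol demethylase gene Cyp51 was at 106 and 201 CPM in the low and high pyrvinium quartiles and at 124 and 126 CPM with DMSO.

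Of 18 feedback and target genes of the ERK pathway with enough counts, 9 were higher and 0 lower with pyrvinium (median log2 ratio 0.46) and 2 higher and 0 lower with DMSO (-0.08, or 0.02 with the scaling without Sprr genes). Their sum was 973, 1135, 1267 and 1554 CPM across the pyrvinium quartiles and 1132, 1017, 1114 and 1241 CPM with DMSO. Against the middle quartiles 2 of 18 were higher and 0 lower with pyrvinium, and 2 higher and 2 lower with DMSO. Hbegf, an epidermal growth factor receptor ligand gene, was at 13.5 and 27.3 CPM with pyrvinium and 67.5 and 64.6 CPM with DMSO. Emp1, an epithelial membrane protein gene, was at 33.5 and 63.4 CPM with pyrvinium and 44.9 and 43.5 CPM with DMSO. Of 15 S100, annexin and galectin genes with enough counts, 6 were higher and 0 lower with pyrvinium, and 2 higher and 1 lower with DMSO. Against the middle quartiles 2 of 15 were higher and 0 lower in each library. The calcium-binding protein gene S100a6 was at 5366 and 6527 CPM in the low and high DMSO quartiles and at 5248 and 8924 CPM with pyrvinium.

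Transcription factor genes of epithelial barrier differentiation passed the size rule more often downward than upward with DMSO between the high and the low quartile. Of 21, 0 were higher and 4 lower with DMSO, namely Klf4, Klf6, Fosl2 and Nfe2l3, and 2 were higher and 1 lower with pyrvinium. Over all genes 3.07% were higher and 5.23% lower with DMSO, and 6.70% and 3.80% with pyrvinium. Scaled without mitochondrial, ribosomal protein and Sprr genes, 2 were lower with DMSO, and Klf4 was not among them. The 21 genes summed to 839, 581, 609 and 607 CPM across the DMSO quartiles, highest in the lowest quartile. Against the middle quartiles 1 was higher and 0 lower with DMSO, and 0 higher and 1 lower with pyrvinium. Klf4, which drives terminal differentiation in skin and gut, was at 26.2, 23.3, 20.5 and 16.3 CPM with DMSO and at 14.6, 12.97, 11.4 and 10.5 CPM with pyrvinium. Elf3, an epithelial factor that can activate SPRR promoters, was at 257 and 180 CPM with DMSO and 118 and 93.2 CPM with pyrvinium. The AP-1 member gene Fosl1 was at 9.99 and 17.4 CPM with pyrvinium and 14.98 and 14.1 CPM with DMSO. Of 15 STAT3 target genes with enough counts, 1 was higher and 0 lower with DMSO, and 2 were higher and 2 lower with pyrvinium.

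**Figure D4:**
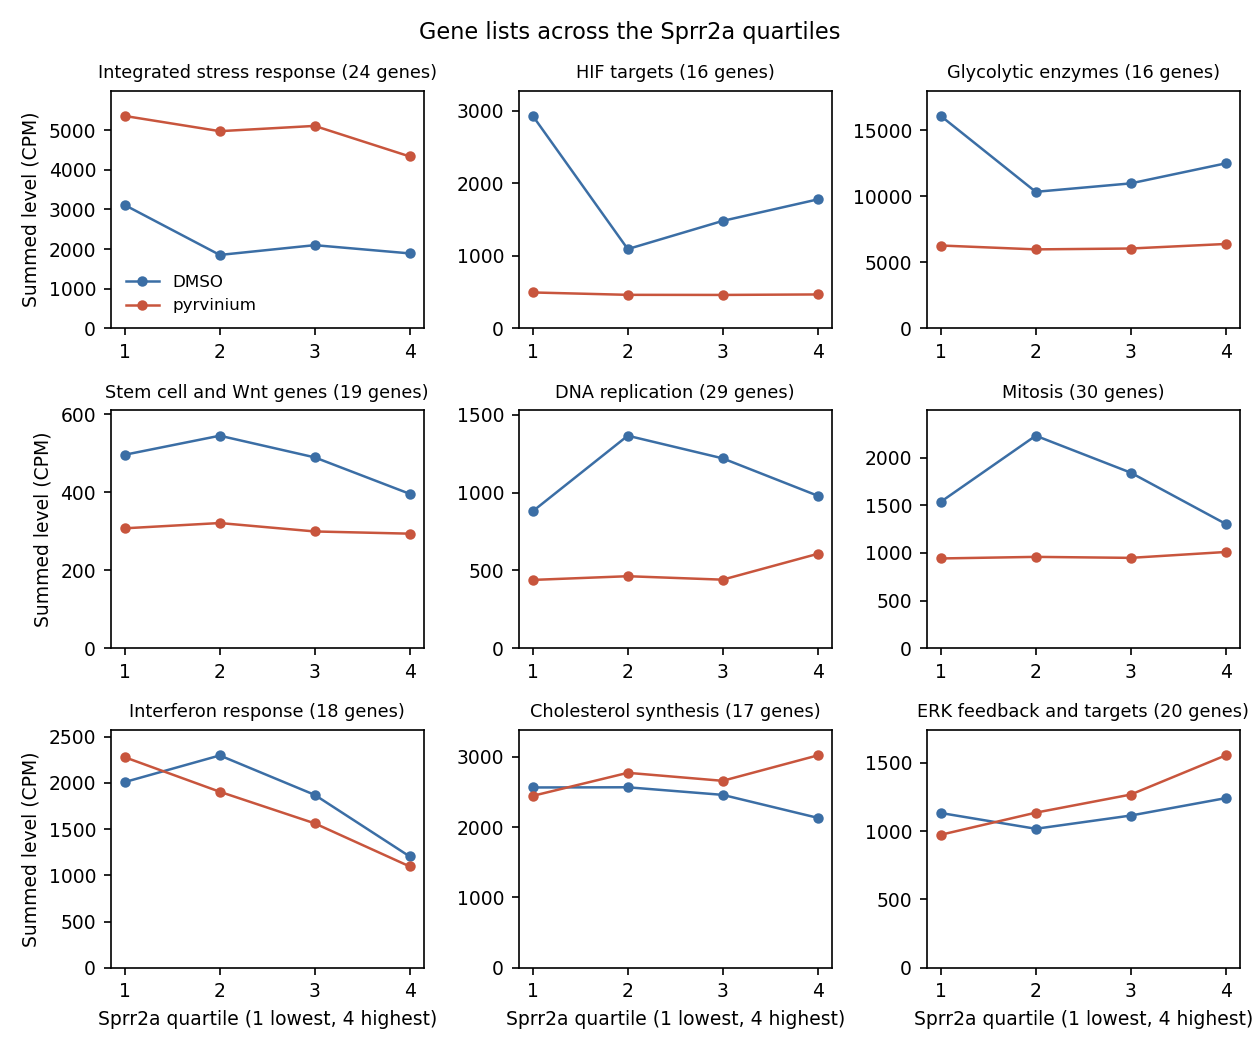
Summed CPM (y axis, from 0) of 9 gene lists in the 4 Sprr2a quartiles (x axis, 1 lowest and 4 highest), DMSO blue and pyrvinium red. With DMSO the HIF list has its highest value, 2929 CPM, in the lowest quartile and the mitosis list its highest, 2231 CPM, in the second, whereas with pyrvinium the HIF list stays between 461 and 495 CPM and the replication list is highest, at 606 CPM, in the highest quartile.

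The genes whose contrast differed most between the libraries were Lcn2, Crct1, Ptgs2, Myl7, F3, Stk31, Tff2, Hmox1, Krt4 and Tff1. The difference of the log2 ratios, pyrvinium minus DMSO, was at least 1.5-fold with its interval on that side for 918 genes upward (7.80%) and 284 downward (2.41%). Scaled without mitochondrial, ribosomal protein and Sprr genes these counts were 609 and 429. F3, the gene of tissue factor, which starts coagulation, was at 97.5, 47.1, 55.1 and 75.5 CPM with DMSO and at 27.3, 36.8, 38.2 and 99.2 CPM with pyrvinium. Its difference was 2.23 (1.97 to 2.48). Tff1 was at 447, 243, 290 and 372 CPM with DMSO and rose from 239 to 305, 460 and 586 CPM with pyrvinium, a difference of 1.56 (1.46 to 1.66). Both genes were detected in many cells, F3 in 134 and Tff1 in 150 of the 213 pyrvinium cells of the high quartile.

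Hmox1, Myl7 and Ptgs2 passed the size rule in opposite directions in the libraries. Heme oxygenase 1 (Hmox1), which degrades heme under oxidative stress, was at 94.6 and 42.1 CPM in the low and high DMSO quartiles and at 34.3 and 52.6 CPM with pyrvinium. Myl7, a myosin light chain gene, was at 52.8 and 26.5 CPM with DMSO and 5.99 and 19.0 CPM with pyrvinium. Ptgs2, the inducible cyclooxygenase gene, was at 19.5 and 8.31 CPM with DMSO and 8.86 and 26.8 CPM with pyrvinium. Of the Ptgs2 counts of the low DMSO quartile 82% came from 5 cells, and without the 5 top cells of each quartile the DMSO log2 ratio was 0.31 in place of -1.23.

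Other large differences rested on few cells. The lipocalin gene Lcn2, an iron-scavenging antimicrobial protein, was at 3.69 and 6.97 CPM with DMSO and at 29.5 and 2.66 CPM with pyrvinium, a difference of -4.39. With DMSO it was counted in 6 cells of the low and 8 of the high quartile, and with pyrvinium in 38 and 8. Its log2 ratio with DMSO was 0.92, but -3.45 between the 10% of cells with the most and the 10% with the least Sprr2a. Crct1, a cornified envelope family gene, was at 27.2 and 2.01 CPM with DMSO and was counted in 12 and 7 cells. Stk31 was at 10.2 and 60.4 CPM with pyrvinium, with 61% of the counts of the high quartile in 5 cells. Tff2, the peptide gene of metaplastic mucous cells, was at 51.2 and 17.3 CPM with pyrvinium, with 73% of the counts of the low quartile in 5 cells, and at 28.7 and 35.6 CPM with DMSO.

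**Figure D5:**
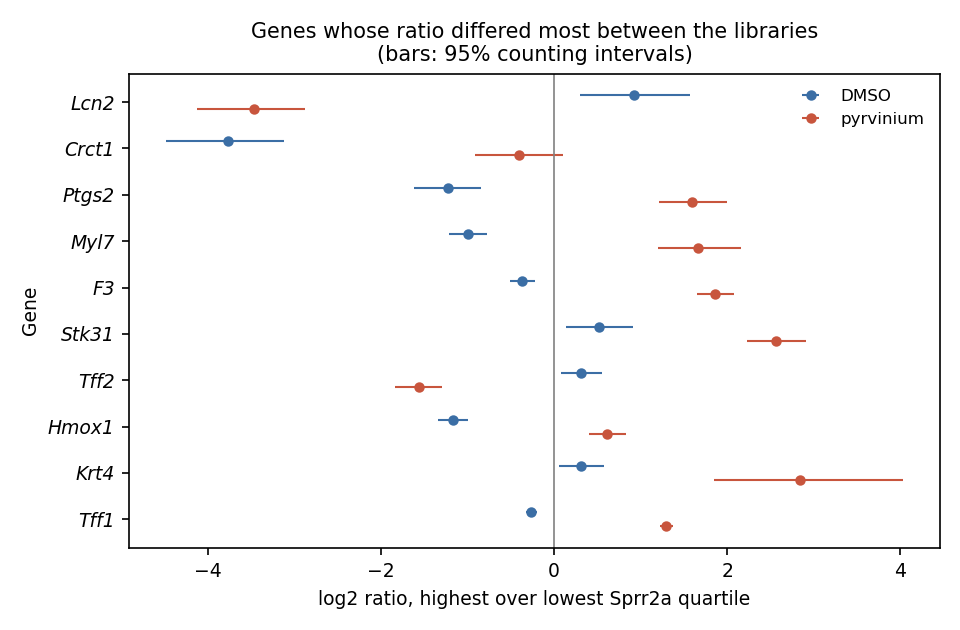
Log2 ratios of the highest over the lowest Sprr2a quartile (x axis) for the 10 genes whose ratio differed most between the libraries (y axis), DMSO blue and pyrvinium red, bars giving 95% counting intervals. Lcn2 is at 0.92 with DMSO and -3.47 with pyrvinium, and F3 at -0.37 and 1.86; Lcn2 and Crct1 were counted in few cells.

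Cells high in other markers were spread over the Sprr2a quartiles, with shares from 25.5% to 31.9% in the high quartile. Of the 400 DMSO cells with the most Cnfn and Ly6c1 counts per 10000, 27.0% lay in the high and 29.5% in the low Sprr2a quartile, and with pyrvinium 28.2% and 24.9% of 213. Of the quartile with the most Clu and Agr2, genes of metaplastic mucous cells, 25.5% and 29.1% lay in the high Sprr2a quartile with DMSO and pyrvinium, and 16.8% and 20.2% in the low quartile. For the quartile with the most Tff1 the shares in the high Sprr2a quartile were 26.0% and 31.9%, and those in the low quartile 29.0% and 21.6%. An unrelated choice of cells would give 25%. Among all cells 1015 with DMSO and 456 with pyrvinium had 0 Cnfn and Ly6c1 counts, and 783 and 256 had 0 Tff1 counts. The Cnfn and Ly6c1 quartiles began at 0.55 per 10000 in both libraries. Few counts thus decided membership of them for some cells, which limits what these overlaps can show.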

How the data were processed

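The authors deposited 1 matrix of counts per library, whole numbers per gene and barcode that were not normalized (per the file values). Cells were captured with PIPseq, per the labels' protocols, and Partek and the build GRCm39 were used, per the submitters' processing notes. The sources used here do not name the aligner, counting tool or annotation, nor say if molecules or reads were counted. The matrices hold 331629 (DMSO) and 353485 (pyrvinium) barcodes over 32227 genes, and 0 barcodes of cells were shared.

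With Python 3.11.15 (numpy 2.4.6, scipy 1.17.1, pandas 2.3.3, scanpy 1.11.5), counts were summed over each quartile of cells ranked by Sprr2a1, Sprr2a2 and Sprr2a3 per 10000 and scaled to counts per 1000000 (CPM). For genes with at least 20 counts in the high and low quartiles together, the log2 ratio was given an exact conditional binomial interval, and the difference between libraries a normal interval from the 4 counts. A sum of 0 took a floor of 3 counts. Shares of cells have exact binomial (Clopper-Pearson) intervals. Cells were also thinned to 5000 counts, which each of them reached. With 1 library per treatment no test was possible, since cells of 1 library are no replicates. The ratios, intervals and size rule were checked on simulated data. Alternatives were other shares of cells, thinned or split counts, depth-matched cells, other scalings, means over cells, doublet removal, free RNA subtraction, other count minimums for cells and genes, ranking by Sprr2a3 alone and removal of each gene's top cells.

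The members and the 33 gene lists (547 of 549 entries matched) were chosen with earlier results of these data known. Genes named are the 15 highest and 15 lowest by the interval bound nearest 0 in both libraries among those with at least 20 CPM, the 10 with the largest difference between libraries, all Sprr genes, up to 4 members of each list with at least 10 CPM and the largest ratio, squamous markers and a fixed set. Bnip3, Calml3, Cd3e, Col1a1, Ecm1, Eda2r, Fosl2, Gkn1, Gkn2, Krt18, Krt6b, Krt8, Krtdap, Ly6c1, Lyz2, Muc5ac, Muc6, Ptprc and Tgm1 were added after their values were seen. Mitochondrial, ribosomal protein and unnamed genes were left out of the ranking. Scrublet called 0 and 3 cells, too few to use, so doublets were kept and the 5% of cells with the highest score were left out as an alternative. Coding sequences came from GENCODE transcripts of GRCm38. A few items, among them the second allele of the mice, are not reported here.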

Additional observations from a re-analysis of the deposited data

Results flagged for a closer look

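For 5 named genes the high over low ratio passed the size rule in opposite directions in the libraries. The differences of the log2 ratios, pyrvinium minus DMSO, were -4.39 for Lcn2, 2.82 for Ptgs2, 2.66 for Myl7, 1.78 for Hmox1 and 1.65 for Axin2. With 1 library per treatment none of these differences was tested.

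Barcodes with 100 to 500 counts, which the comparisons of cells do not use, held 371 Sprr2a counts per 10000 with DMSO and 235 with pyrvinium, above the low quartiles.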

How the results depend on the processing

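No paired analysis was possible because each treatment has 1 library. Other scalings and a higher minimum count moved counts of genes by over 1.5 times. Scaled without mitochondrial, ribosomal protein and Sprr genes, 585 genes were higher and 415 lower with DMSO and the difference was higher for 609 and lower for 429. Scaled by the median of ratios, the difference was higher for 543 and lower for 466. With at least 100 counts per gene, 198 were higher and 362 lower with DMSO, 464 and 233 with pyrvinium, and the difference was higher for 609 and lower for 132, fewer because fewer genes were compared. The log2 ratio of Sprr2a over all cells, -0.72, was -0.66 with cells thinned to 5000 counts, -0.69 with cells of at least 5000 counts, -0.75 with at least 20000, -0.67 with the scaling without mitochondrial, ribosomal protein and Sprr genes and -0.69 without the 5% of cells with the highest doublet score. These 5 settings, the subtraction of free RNA at the share the lowest cell allows and the removal of top cells were added after seeing the data.

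Of 177 values of named genes past the size rule, 56 came under it in at least 1 of 15 alternatives, and 7 changed sign. Between the top and bottom 10% of cells the log2 ratio was -3.45 for Lcn2 and -1.84 for Ccl20 with DMSO, and -0.17 for Anln, 0.66 for Cxcl5 and 0.36 for Slpi with pyrvinium. In cells of at least 20000 counts Lcn2 was at -0.40 and Cxcl5 at 0.42 with DMSO. Without the 5 top cells of each quartile Ptgs2 was at 0.31 and Cxcl5 at 1.27 with DMSO. The cause was not tested. With 1 organoid line, 1 library per treatment and intervals of counting error only, genes of a few cells have the least certain ratios.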
